A study of Mus musculus with 16 samples.

Results

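The genes of MHC class II presentation were followed across 16 B16F10 allograft tumors. The set was fixed by name and holds 8 of the 45777 genes listed in the expression table: H2-Aa, H2-Ab1 and H2-Eb1, H2-DMa and H2-DMb1, Cd74, Ctss and Ciita. B16F10 is a melanoma cell line derived from the C57BL/6 mouse, and the study grew it under the skin of lean C57BL/6J mice and of leptin-deficient ob/ob mice, which become obese. RNA was sequenced from 4 tumors in each of 4 groups: lean pre-therapy, lean post-ETS, obese pre-therapy and obese post-ETS. Etoposide (ETS), a topoisomerase poison that breaks DNA, was given by intraperitoneal injection at 20 mg per kg, 5 times, and pre-therapy tumors received none. The hosts were 6 weeks old when the tumor cells were injected. All 4 groups carry the same tumor line, and the labels name host genotype and treatment as what differs between them. The labels give no harvest day or tumor size, which may also differ between pre-therapy and post-ETS tumors. The ob/ob model lacks leptin in every tissue, and obesity and loss of leptin cannot be told apart here.

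A class II molecule is a pair of chains that shows peptides from endosomes to CD4 T cells. H2-Aa and H2-Ab1 encode the alpha and beta chains of I-A, and H2-Eb1 encodes the beta chain of I-E, whose alpha chain is not made in C57BL/6 mice. Cd74, the invariant chain, fills the groove until cathepsin S (Ctss) trims it, and H2-DM, encoded by H2-DMa and H2-DMb1, then exchanges the remnant for antigen peptide. Ciita, the class II transactivator, switches on most of these genes through promoter-bound RFX, NF-Y and CREB proteins. Macrophages, dendritic cells and B cells are the usual sources of these transcripts, and many other cells make them under interferon gamma. The libraries came from whole tumors, in which fewer cells of a type and less RNA per cell cannot be told apart.

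Promoter windows of the members were searched for the letters of the X and Y boxes. The 250 bases before each listed RefSeq start were read for 5 of the 8 members. The windows came from a RefSeq promoter table on GRCm38.p6, the mm10 assembly used by the authors, each 5′ to 3′ on the strand of its gene. Capitals mark a core of the X box (GNAAC), where RFX binds, followed by a core of the Y box (TGATTGG), where NF-Y binds, or, for Ctss, an interferon-stimulated response element (GAAANNGAAA). The first 3 windows are printed because they hold the X-then-Y pair and the last because it is the only member window with the interferon element. The H2-Aa window is chr17:34287824-34288073 on the minus strand, the H2-Eb1 window chr17:34305617-34305866 on the plus strand, the H2-DMb1 window chr17:34152941-34153190 on the plus strand and the Ctss window chr3:95526536-95526785 on the plus strand.
H2-Aa: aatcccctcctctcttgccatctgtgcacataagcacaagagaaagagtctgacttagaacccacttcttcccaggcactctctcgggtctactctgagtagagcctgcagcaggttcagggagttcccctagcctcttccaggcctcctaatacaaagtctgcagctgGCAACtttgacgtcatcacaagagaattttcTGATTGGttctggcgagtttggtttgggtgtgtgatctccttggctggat
H2-Eb1: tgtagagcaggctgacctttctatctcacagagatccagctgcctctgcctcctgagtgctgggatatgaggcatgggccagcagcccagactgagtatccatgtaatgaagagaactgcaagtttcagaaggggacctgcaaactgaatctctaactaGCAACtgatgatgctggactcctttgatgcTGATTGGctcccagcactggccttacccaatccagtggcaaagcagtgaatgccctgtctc
H2-DMb1: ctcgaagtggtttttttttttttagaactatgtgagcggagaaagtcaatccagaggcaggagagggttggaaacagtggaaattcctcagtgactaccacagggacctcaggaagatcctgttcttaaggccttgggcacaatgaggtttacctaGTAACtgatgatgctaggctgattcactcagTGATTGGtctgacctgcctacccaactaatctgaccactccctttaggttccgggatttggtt
Ctss: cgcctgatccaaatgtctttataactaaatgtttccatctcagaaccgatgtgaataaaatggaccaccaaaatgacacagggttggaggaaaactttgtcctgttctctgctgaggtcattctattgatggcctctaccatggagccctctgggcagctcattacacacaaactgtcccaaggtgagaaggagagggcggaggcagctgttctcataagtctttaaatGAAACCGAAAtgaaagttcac
In H2-Aa the X core began 81 bases and the Y core 50 bases before the start, in H2-Eb1 91 and 61 bases, and in H2-DMb1 94 and 63 bases. The spacing between the cores was thus 31, 30 and 31 bases. The motif letters and the spacing limit of 28 to 36 bases were chosen after these sequences had been seen. On either strand, an X core was found in 79.6% of 32851 mouse promoter windows of the same length, a Y core in 7.23%, and the pair in that spacing in 0.234%. The interferon element, 21 bases before the start of Ctss, was found in 2.98% of windows. Neither window of H2-DMa (chr17:34122582-34122831 and chr17:34125268-34125517), nor that of Ctss, held the pair. Both H2-DMa windows lie inside the span of the gene, chr17:34119693-34139101. No window before another start of H2-DMa was read, so its lack of the pair holds for these stretches only. The table has no window for H2-Ab1, Cd74 or Ciita.

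Of the 8 members, H2-Aa (chr17:34282744-34287823), H2-Ab1 (chr17:34263227-34269418), H2-Eb1 (chr17:34305867-34316674), H2-DMa (chr17:34119693-34139101) and H2-DMb1 (chr17:34153191-34160229) lie in the MHC on chromosome 17. Cd74 (chr18:60803849-60812652), Ctss (chr3:95526786-95556405) and Ciita (chr16:10480014-10531064) lie elsewhere. H2-DMa overlaps Brd2 and Ciita overlaps Dexi on the opposite strand, and the strand setting of the counting was not stated. Mean levels of Brd2 were 233, 207, 228 and 209 CPM (counts scaled to a common library total) and those of Dexi 6.33, 10.3, 6.95 and 8.52 CPM in lean pre-therapy, lean post-ETS, obese pre-therapy and obese post-ETS tumors, in that order. Those levels did not follow the pattern of either member.

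Each tumor had between 47199949 and 61655287 counts. A gene entered the tests if every tumor had at least 1 read of it, which held for 16209 genes and 7 of the 8 members; Ciita had 0 counts in lean post-ETS tumor 4 and was tested in a fit without the exclusion. Levels are CPM after TMM scaling, and differences are log2 fold changes ± SE from edgeR's quasi-likelihood test, with p-values adjusted over all genes tested and called below 0.05. Melanocyte markers, which the tumor line should express, summed to 11325 to 28518 CPM over 9 genes.

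The 3 classical chains were abundant in lean pre-therapy tumors and low in the other 3 groups. H2-Aa stood at 346, 608, 296 and 438 CPM in the lean pre-therapy tumors and at 23.0, 16.6, 3.45 and 2.24 CPM after ETS. In obese tumors it stood at 3.22, 14.4, 2.63 and 1.68 CPM before therapy and at 3.99, 7.04, 11.5 and 34.3 CPM after ETS. Every lean pre-therapy tumor was above every other tumor, while the remaining 3 groups overlapped one another. H2-Ab1 read 239, 396, 184 and 296 CPM in lean pre-therapy tumors against 12.9, 14.1, 2.04 and 1.86 CPM after ETS. Its obese tumors read 2.42, 9.61, 2.41 and 2.17 CPM before therapy and 3.35, 5.29, 8.75 and 31.2 CPM after ETS. The I-A alpha and beta chains therefore had the same order of groups. H2-Eb1 read 248, 419.8, 182 and 298 CPM in lean pre-therapy tumors and 16.1, 13.5, 2.31 and 1.40 CPM after ETS. Before therapy the obese tumors read 2.32, 9.99, 1.93 and 1.18 CPM, and after ETS 3.06, 6.49, 8.86 and 25.3 CPM. For all 3 chains, obese pre-therapy tumor 2 was the highest of its group and obese post-ETS tumor 4 the highest of its own.

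**Figure D1:**
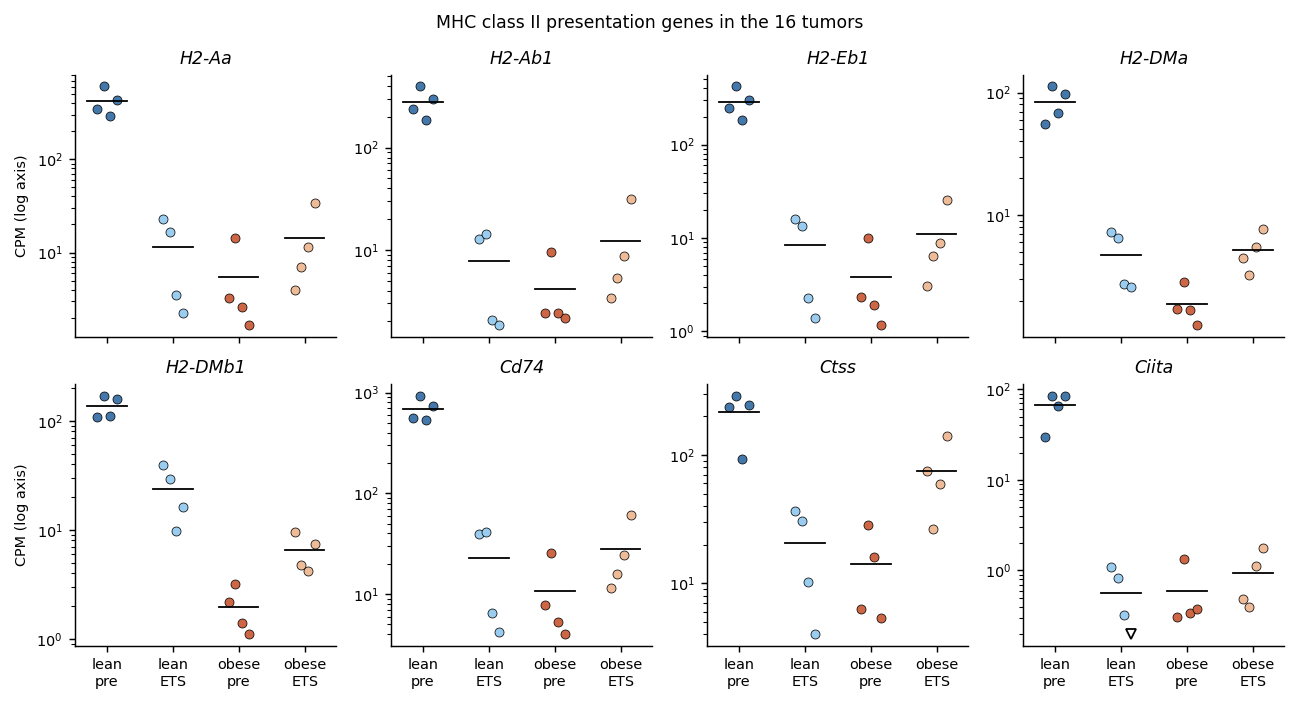
Level of each member in CPM (log axis) in the 4 tumors of each group, 1 point a tumor, with a line at the mean. The 4 lean pre-therapy tumors lie above all other tumors for 7 of the members, and for Ctss above all but obese post-ETS tumor 4; the open triangle marks the 0 counts of Ciita in lean post-ETS tumor 4.

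After ETS, 7 of the 7 tested members fell in lean tumors, where 22.8% of all genes fell and 21.0% rose. H2-Aa fell by 5.22 ± 0.91 on the log2 scale (37.3-fold, adjusted p = 0.000439), H2-Ab1 fell by 5.18 ± 0.86 (36.1-fold, adjusted p = 0.000303) and H2-Eb1 fell by 5.11 ± 0.89 (34.5-fold, adjusted p = 0.000462). The members' median was a log2 fold change of -4.92, against -0.01 over all genes tested. Pre-therapy and post-ETS lean tumors did not overlap for any of the 8 members, and the share of all genes without overlap was not counted.

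The peptide-loading genes moved with the chains in lean tumors, H2-DMb1 less far. H2-DMa, the alpha chain of the exchange factor, stood at 55.4, 112, 68.6 and 97.5 CPM in lean pre-therapy tumors and at 7.27, 6.45, 2.72 and 2.59 CPM after ETS. It fell by 4.13 ± 0.40 on the log2 scale (17.5-fold, adjusted p = 4.83e-06). H2-DMb1, its beta chain partner, stood at 108, 171, 111 and 158 CPM before and at 39.5, 29.5, 9.76 and 16.2 CPM after ETS. It fell by 2.53 ± 0.40 (5.77-fold, adjusted p = 0.00023). Per transcript length, H2-DMb1 was 2.49 to 6.51 times the level of H2-DMa in TPM (a level that also divides by transcript length) in lean pre-therapy tumors and 9.35 to 19.97 times in lean post-ETS tumors, so the ratios of these groups did not overlap. TPM and CPM ranked the lean pre-therapy tumors differently for H2-DMa: tumor 2 was highest at 112 CPM and lowest at 44.8 TPM. H2-DMb1 has a close copy, H2-DMb2, and how the counting divided reads between them was not stated.

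Cd74 was the most abundant member of lean pre-therapy tumors. It read 561, 934, 532 and 737 CPM there and 39.6, 41.2, 6.48 and 4.17 CPM after ETS, and fell by 4.92 ± 0.84 on the log2 scale (30.3-fold, adjusted p = 0.00038). Ctss, the protease that trims it, read 235, 291, 93.4 and 246 CPM before and 36.7, 30.7, 10.3 and 4.04 CPM after ETS. Ctss fell by 3.40 ± 0.71 (10.6-fold, adjusted p = 0.00164). Lean post-ETS tumors 3 and 4 were the lowest of their group for both genes, and they were also the lowest for the 3 classical chains and for H2-DMa.

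Ciita had the widest range. In CPM, the lean pre-therapy tumors stood at 30.1, 85.5, 66.0 and 84.1 and the lean post-ETS tumors at 1.10, 0.819, 0.322 and 0. A count of 0 in tumor 4 allows a level of up to 0.0525 CPM (3 counts, counting error only). In the fit without the exclusion, over 28754 genes of which 12.5% fell, Ciita had a log2 fold change of -6.91 ± 0.79 (adjusted p = 2.47e-05). Its post-ETS counts were 62, 41, 18 and 0 reads, so the size of that fold rests on few reads.

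No tested member was called lower after ETS in obese tumors. H2-DMa, H2-DMb1 and Ctss rose, which is 3 of the 7 tested members, where 21.2% of all genes rose and 19.0% fell. H2-DMa read 1.70, 2.81, 1.69 and 1.27 CPM before and 4.48, 3.23, 5.48 and 7.69 CPM after ETS, a rise of 1.49 ± 0.38 on the log2 scale (adjusted p = 0.00652). H2-DMb1 read 2.19, 3.17, 1.41 and 1.11 CPM before and 9.57, 4.78, 4.16 and 7.41 CPM after, a rise of 1.73 ± 0.43 (adjusted p = 0.00539). These are the members whose obese groups did not overlap. The share of all genes without such overlap was not counted either. Ctss read 6.31, 28.4, 16.2 and 5.37 CPM before and 74.9, 26.6, 59.1 and 139.7 CPM after ETS, a rise of 2.42 ± 0.69 (adjusted p = 0.0124).

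The chains and Cd74 had positive log2 fold changes in obese tumors that did not pass the test. The values were 1.38 for H2-Aa (95% interval -0.32 to 3.08, adjusted p = 0.183), 1.56 for H2-Ab1 (-0.07 to 3.19, adjusted p = 0.118) and 1.51 for H2-Eb1 (-0.20 to 3.23, adjusted p = 0.146). Cd74 read 7.73, 25.9, 5.34 and 4.04 CPM before and 11.6, 15.7, 24.3 and 61.5 CPM after ETS, with a log2 fold change of 1.40 (-0.17 to 2.97, adjusted p = 0.143). Ciita read 0.310, 1.34, 0.335 and 0.371 CPM before and 0.490, 0.391, 1.13 and 1.77 CPM after, with a log2 fold change of 0.70 (adjusted p = 0.527). Obese pre-therapy tumor 2 decides this count: without it, 7 of 7 tested members rose, where 3234 of 16243 genes rose. The log2 fold changes were then 2.51 for H2-Aa (adjusted p = 0.0283) and 2.31 for Cd74 (adjusted p = 0.028), while Ciita at 1.47 still did not pass (adjusted p = 0.215). Without obese post-ETS tumor 4, H2-DMa, H2-DMb1 and Ctss were again called, where 3478 of 16231 genes rose. The values went down to 0.48 for H2-Aa, 0.51 for H2-Ab1, 0.70 for H2-Eb1, 0.70 for Cd74 and 0.22 for Ciita.

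**Figure D2:**
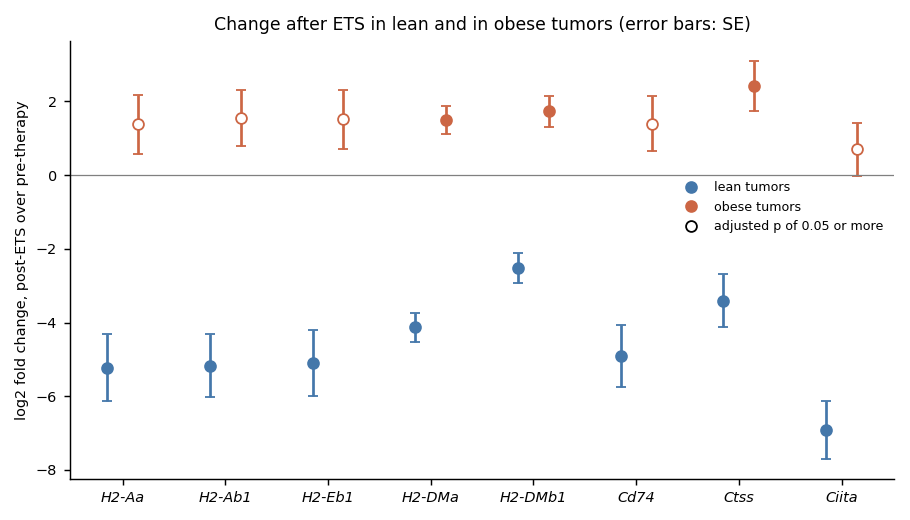
Log2 fold change after ETS (vertical axis, error bars SE) for each member in lean and in obese tumors, with open circles for an adjusted p of 0.05 or more. The lean values run from -2.53 for H2-DMb1 to -6.91 for Ciita, and the obese values from 0.70 for Ciita to 2.42 for Ctss.

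The changes after ETS in the hosts were compared by subtracting the obese log2 fold change from that of lean tumors. Obese pre-therapy tumors already held H2-Aa at 1.68 to 14.4 CPM, near the 2.24 to 23.0 CPM of lean post-ETS tumors. The contrast therefore cannot separate how ETS acted from the host difference before therapy. The difference was negative and called for 7 of 7 members, where 10.1% of all genes had a negative and 6.35% a positive call. The difference was -6.60 ± 1.19 for H2-Aa (adjusted p = 0.00155), -6.73 ± 1.13 for H2-Ab1 (adjusted p = 0.000957) and -6.62 ± 1.18 for H2-Eb1 (adjusted p = 0.00147). It was -5.62 ± 0.54 for H2-DMa (adjusted p = 1.83e-05) and -4.25 ± 0.59 for H2-DMb1 (adjusted p = 0.000199). For Cd74 it was -6.32 ± 1.10 (adjusted p = 0.00122) and for Ctss -5.82 ± 0.99 (adjusted p = 0.00105). Ciita, in the fit without the exclusion, where 6.44% of genes had a negative call, gave -7.61 ± 1.02 (adjusted p = 0.000225).

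Before therapy, obese tumors held less of every member than lean tumors. All 7 tested members were lower, where 12.9% of all genes were lower and 13.5% higher. The groups did not overlap for any of the 8, and the share of all genes without overlap was not counted. The log2 difference, obese minus lean, was -6.27 ± 0.96 for H2-Aa (77.3-fold lower, adjusted p = 0.000245), -6.07 ± 0.90 for H2-Ab1 and -6.23 ± 0.95 for H2-Eb1. It was -5.48 ± 0.43 for H2-DMa (44.8-fold lower, adjusted p = 4.74e-07) and -6.13 ± 0.49 for H2-DMb1 (69.9-fold lower, adjusted p = 5.54e-07). Cd74 differed by -6.01 ± 0.89 (64.4-fold lower, adjusted p = 0.000182). Ctss, which many myeloid cells make, differed least, by -3.94 ± 0.73 (15.4-fold lower, adjusted p = 0.00116). Ciita differed by -6.84 ± 0.79 (adjusted p = 2.68e-05), where 7.92% of genes were lower in that fit. This comparison, the change in lean tumors and the difference between the ETS effects share the lean pre-therapy tumors, so they are not separate evidence. The difference between the ETS effects is also the pre-therapy difference less that after ETS.

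After ETS, the tumors of the hosts differed in 1 of 7 members, where 2.30% of all genes were lower and 3.28% higher in obese tumors. H2-DMb1 was lower in obese tumors by a log2 difference of -1.87 ± 0.40 (adjusted p = 0.0199), and its highest obese tumor, at 9.57 CPM, was just under its lowest lean tumor, at 9.76 CPM. Ctss had a log2 difference of 1.88 (95% interval 0.44 to 3.31) that did not pass after adjustment over all genes (adjusted p = 0.102). For the other 5 tested members the interval held 0, from -1.32 to 1.98 for H2-Aa, from -0.92 to 2.23 for H2-Ab1, from -1.25 to 2.04 for H2-Eb1, from -0.63 to 0.91 for H2-DMa and from -1.22 to 1.84 for Cd74. The H2-DMb1 call was lost when only these 8 tumors entered the fit (adjusted p = 0.0836), where 16 of 16209 genes were lower in obese tumors.

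The order of the members, compared per transcript length, changed between groups. In lean pre-therapy tumors it ran from Cd74 (1167 ± 342 TPM, SD, n = 4) through H2-Aa (808 ± 278), H2-Ab1 (504 ± 172), H2-Eb1 (371 ± 135), Ctss (343 ± 136), H2-DMb1 (231 ± 60.8) and H2-DMa (62.9 ± 16.2) to Ciita (21.7 ± 8.998). Neighbours from Cd74 to H2-DMb1 overlapped in range, and H2-DMa and Ciita were each below the range of the gene before them. In lean post-ETS tumors H2-DMb1 (29.9 ± 15.9 TPM), Cd74 (28.1 ± 24.0) and Ctss (24.3 ± 18.0) had the highest means and overlapped in range. In obese tumors Ctss came first, at 20.7 ± 16.3 TPM before therapy and 104.6 ± 71.4 TPM after ETS, with the remaining genes in the order of the lean pre-therapy tumors.

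Within a tumor, H2-Aa kept a steadier proportion to H2-Eb1 and Cd74 than to Ctss. H2-Aa over H2-Eb1 had a median ratio in TPM of 2.16, 2.16, 2.08 and 1.93 in lean pre-therapy, lean post-ETS, obese pre-therapy and obese post-ETS tumors, and H2-Aa over Cd74 a median of 0.688, 0.606, 0.514 and 0.524. Over single tumors the first ranged from 1.61 to 2.41 and the second from 0.392 to 0.739. The ratio of the I-A chains, H2-Aa over H2-Ab1, ranged more widely, from 1.53 to 1.70 in lean pre-therapy, 1.25 to 1.88 in lean post-ETS, 0.813 to 1.59 in obese pre-therapy and 1.16 to 1.41 in obese post-ETS tumors. H2-Aa over Ctss was at 1.77 to 3.79 in lean pre-therapy tumors and 0.0636 to 0.317 in obese post-ETS tumors. As deviations of log2 CPM from the group means, H2-Aa and H2-Eb1 varied together over the 16 tumors with r = 0.996, H2-Aa and Cd74 with r = 0.987, H2-Aa and Ciita with r = 0.833 and H2-Aa and H2-DMb1 with r = 0.660. The members share library and depth in each tumor, and these values are descriptions.

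Markers of several other cell types moved along with the members, though not in every group. The summed level of 10 macrophage markers was 326 to 1036 CPM in lean pre-therapy tumors, 47.1 to 397 in lean post-ETS tumors, 28.4 to 192 in obese pre-therapy tumors and 334 to 924 in obese post-ETS tumors. After ETS, 7 of the 9 tested macrophage markers fell in lean and 8 of 9 rose in obese tumors. The 3 leukocyte markers summed to 96.5 to 246 CPM in lean pre-therapy and 7.97 to 68.2 CPM in lean post-ETS tumors. In obese tumors they summed to 9.24 to 30.2 CPM before therapy and 50.1 to 127 CPM after ETS. All 3 fell in lean tumors after ETS, and 2 of the 3 rose in obese tumors.  Over all genes 22.8% fell in lean and 21.2% rose in obese tumors. The 9 dendritic cell markers summed to 29.2 to 50.9 CPM in lean pre-therapy tumors and to 6.25 to 13.4 CPM in the other groups, and Siglech was at 0 in every lean post-ETS tumor. T cell markers were at 17.8 to 33.8 CPM in lean pre-therapy tumors and at 0 to 1.51 CPM in the other groups, with Cd3e at 0 in every obese pre-therapy tumor. NK cell markers were at 16.6 to 29.4 CPM against 0.053 to 3.73 CPM, with Ncr1 at 0 in every obese pre-therapy tumor. B cell markers summed to between 1.14 and 2.76 CPM in all 16 tumors, with no marker at 0 throughout a group, but the genes did not share a pattern. Cd79a, the 1 tested B cell marker, averaged 0.691, 2.13, 1.06 and 1.75 CPM in lean pre-therapy, lean post-ETS, obese pre-therapy and obese post-ETS tumors and rose in both hosts (log2 fold change 1.62, adjusted p = 0.00023 in lean and 0.72, adjusted p = 0.035 in obese tumors), while Cd79b averaged 1.14, 0.0979, 0.130 and 0.278 CPM. Among markers of other cells, the 7 fibroblast genes summed to 531 to 2189, 97.1 to 599, 95.5 to 605 and 611 to 5692 CPM in the same order. After ETS 4 of the 7 fell in lean and 7 rose in obese tumors (median log2 fold change 3.02), and all 7 had a negative call for the difference between hosts. Of 6 endothelial genes, 1 fell in lean and 5 rose in obese tumors, and 4 had a negative call for that difference, where 10.1% of all genes had one. The part of these markers in the class II levels was not tested beyond the ratios and the fit with a macrophage term that follow.

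Per macrophage marker read, the chains, Cd74, Ctss and Ciita separated lean pre-therapy tumors from the rest, while H2-DMa and H2-DMb1 did not. The share of all genes that separate these tumors by such a ratio was not counted. The summed CPM of H2-Aa, H2-Ab1 and H2-Eb1 was 0.805, 1.49, 2.03 and 1.37 times that of the macrophage markers in lean pre-therapy tumors. The same ratio was 0.161, 0.112, 0.0773 and 0.117 in lean post-ETS tumors, 0.127, 0.177, 0.0736 and 0.177 in obese pre-therapy tumors and 0.0172, 0.0564, 0.0771 and 0.0983 in obese post-ETS tumors. Obese post-ETS tumors thus had macrophage marker levels in the range of lean pre-therapy tumors, while the chains stayed low. For Ctss the ratio was 0.227 to 0.326 in lean pre-therapy tumors and 0.0775 to 0.189 in the other groups. For H2-DMa it was 0.0535 to 0.211 in lean pre-therapy and 0.0163 to 0.0550 in lean post-ETS tumors, and for H2-DMb1 0.105 to 0.340 and 0.0745 to 0.343, so these lean groups overlapped.

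**Figure D3:**
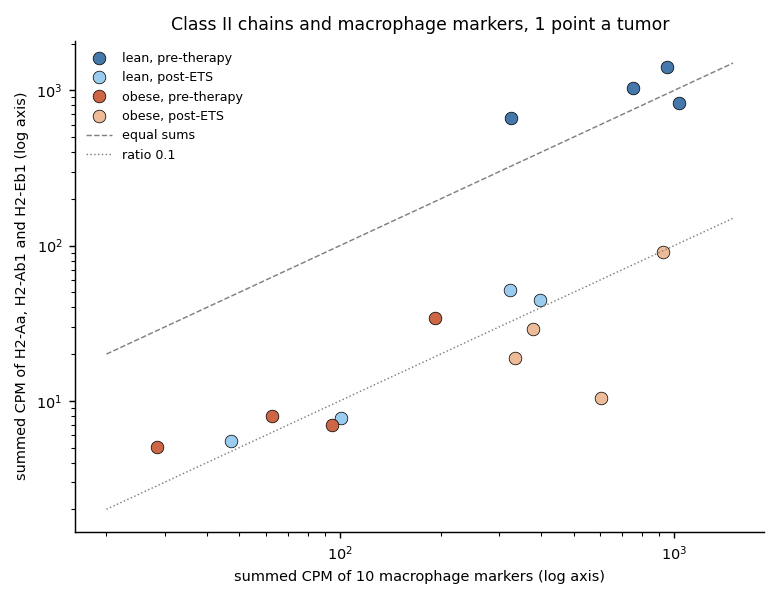
Summed CPM of H2-Aa, H2-Ab1 and H2-Eb1 against summed CPM of 10 macrophage markers, 1 point a tumor, both axes log; dashed and dotted lines mark ratios of 1 and 0.1. The 4 lean pre-therapy tumors lie near the upper line, at ratios of 0.805 to 2.03, and the other tumors near or below the lower one, at 0.0172 to 0.177.

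With the macrophage score, the mean log2 CPM of the 10 markers, as a term in the fit, the lean changes and the pre-therapy differences stayed called for all 7 tested members, where 20.5% of all genes fell in lean tumors and 6.83% were lower in obese tumors before therapy. In lean tumors H2-Aa then changed by -3.98 on the log2 scale (adjusted p = 0.000132) and Ctss by -1.89 (adjusted p = 0.000115). The obese changes did not, with 0 of 7 members called, where the share of all genes that rose also went down, from 21.2% to 5.63%. H2-DMa went to 0.42 and H2-DMb1 to 0.73, and H2-Aa, at -0.96, and Ctss, at -0.03, changed sign. Of the differences between the ETS effects, 2 of 7 stayed called, where negative calls over all genes went from 10.1% to 1.55%. They were H2-DMa at -3.91 (adjusted p = 0.00435) and Ctss at -1.86 (adjusted p = 0.04998), and H2-DMb1, at -2.63, lay just past the threshold (adjusted p = 0.05003). H2-Aa, at -3.01, did not pass (adjusted p = 0.0984). The score itself differs between the groups, so part of the group difference goes to it by construction.

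The rest of the class II pathway was read from 5 lists of 42 names, of which 39 were matched and 32 tested. Over all genes tested, the median log2 fold change after ETS was -0.01 in lean and 0.01 in obese tumors. Among other class II chains, H2-DMb2, the copy of H2-DMb1, was the 1 of 5 genes that passed the exclusion. It averaged 11.1 ± 2.52 CPM (SD, n = 4) in lean pre-therapy, 1.72 ± 1.10 in lean post-ETS, 0.206 ± 0.0932 in obese pre-therapy and 1.02 ± 0.561 in obese post-ETS tumors, fell in lean tumors (adjusted p = 0.00039) and rose in tumors of obese mice (adjusted p = 0.003). H2-Oa and H2-Ob, the chains of the DM inhibitor, averaged 0.895 and 1.01 CPM in lean pre-therapy tumors and at most 0.197 CPM in any other group. H2-Eb2 averaged 3.77 CPM there and had 0 counts in all lean post-ETS tumors, which allows up to 0.0525 to 0.0599 CPM in each. H2-Ea-ps, the I-E alpha pseudogene, averaged 0.0115 CPM in lean pre-therapy tumors and 0 in the other groups.

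The factors that bind the X and Y boxes did not follow the members. Of 7 tested, 1 fell and none rose in lean tumors after ETS, where 22.8% of all genes fell. In obese tumors 6 fell and none rose, where 19.0% of all genes fell. The median log2 fold change was -0.21 in lean and -0.38 in obese tumors. Rfx5, an RFX subunit, averaged 20.9 ± 2.89, 17.2 ± 0.992, 14.5 ± 1.37 and 14.4 ± 1.35 CPM in lean pre-therapy, lean post-ETS, obese pre-therapy and obese post-ETS tumors. Nfyb, an NF-Y subunit, averaged 26.1, 22.6, 35.7 and 21.8 CPM in the same order and fell in obese tumors (log2 fold change -0.71, adjusted p = 8.4e-05). The other RFX subunits also fell in obese tumors, Rfxank by 0.28 (adjusted p = 0.037) and Rfxap by 0.68 (adjusted p = 0.0034). Before therapy, 2 of the 7 were higher and 1 lower in obese tumors, where 13.5% of all genes were higher and 12.9% lower. The 1 that fell in lean tumors was Creb1, from 78.9 ± 4.55 to 50.5 ± 5.97 CPM; Rfx5 and Creb1 were named after their values were seen.

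Most genes between interferon gamma and Ciita fell in lean tumors. Of 8 tested, 6 fell and none rose in lean tumors, where 22.8% of all genes fell. In obese tumors 2 rose and none fell, near the 21.2% of all genes that rose. For the difference between hosts 7 had a negative call, where 10.1% of all genes had one. The medians were -0.72 in lean and 0.18 in obese tumors on the log2 scale. Irf1, a transcription factor that acts on the Ciita promoter, averaged 299.6 ± 77.3 CPM in lean pre-therapy, 27.3 ± 7.17 in lean post-ETS, 17.3 ± 5.15 in obese pre-therapy and 22.1 ± 6.16 CPM in obese post-ETS tumors. It fell in lean tumors (log2 fold change -3.46, adjusted p = 1.5e-06), and the value for obese tumors was 0.36 (adjusted p = 0.29). Socs1, a feedback inhibitor, had log2 fold changes of -3.38 and 1.60, and Jak2, a kinase of the interferon gamma receptor, -0.72 and 0.02. Irf2, another interferon regulatory factor, averaged 27.5 ± 2.94, 15.7 ± 1.499, 14.1 ± 1.16 and 15.01 ± 2.25 CPM in the same groups, with a fall in lean tumors (log2 fold change -0.81, adjusted p = 0.00014) and a value of 0.09 in obese ones (adjusted p = 0.56). Ifng itself was at 1.005 to 2.70 CPM in lean pre-therapy tumors and at 0 to 0.0798 CPM in every other tumor.

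Lysosomal processing genes moved both ways in lean tumors and upward in obese tumors. Of 10 tested, 2 fell and 3 rose in lean tumors, near the 22.8% and 21.0% of all genes. In obese tumors 9 rose and none fell, where 21.2% of all genes rose. The medians were -0.04 in lean and 0.95 in obese tumors on the log2 scale. Lgmn, an asparaginyl endopeptidase, fell by 0.997 on the log2 scale with ETS in lean mice (adjusted p = 0.0024) and rose by 1.15 in obese mice (adjusted p = 0.0011), and the protease Ctsh fell by 0.9998 (adjusted p = 0.025) and rose by 1.66 (adjusted p = 0.0018). Ctsb, another cathepsin, had a value of -0.10 in lean tumors (adjusted p = 0.66) and rose by 1.51 in those of obese mice (adjusted p = 3.9e-05). Ifi30, a thiol reductase of the lysosome, went from 87.5 ± 19.9 to 69.2 ± 12.0 CPM in lean tumors, which did not pass (adjusted p = 0.094), and rose by 0.53 in obese tumors (adjusted p = 0.016).

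Of 6 tested genes of class II turnover and costimulation, 3 fell and 1 rose in lean tumors, where 22.8% of all genes fell and 21.0% rose. In obese tumors 1 rose and none fell, where 21.2% of all genes rose. The medians were -0.62 in lean and 0.75 in obese tumors on the log2 scale. March1, a ubiquitin ligase that removes class II from the surface, fell in lean tumors (log2 fold change -3.68, adjusted p = 0.0021), with a value of 1.91 in obese ones (adjusted p = 0.054). Cd83, a marker of mature dendritic cells, fell by 3.05 in lean tumors (adjusted p = 0.001), with 1.23 in obese ones (adjusted p = 0.11). Cd80, a costimulatory ligand, fell by 1.21 (adjusted p = 0.025) and rose by 1.34 (adjusted p = 0.022). Mif, a ligand of Cd74, rose in lean tumors from 586 ± 57.4 to 883 ± 152 CPM (adjusted p = 0.0021). Cd86 and Cd40, which did not pass the exclusion, averaged 5.16 and 5.32 CPM in lean pre-therapy tumors and at most 1.81 CPM in any other group.

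**Figure D4:**
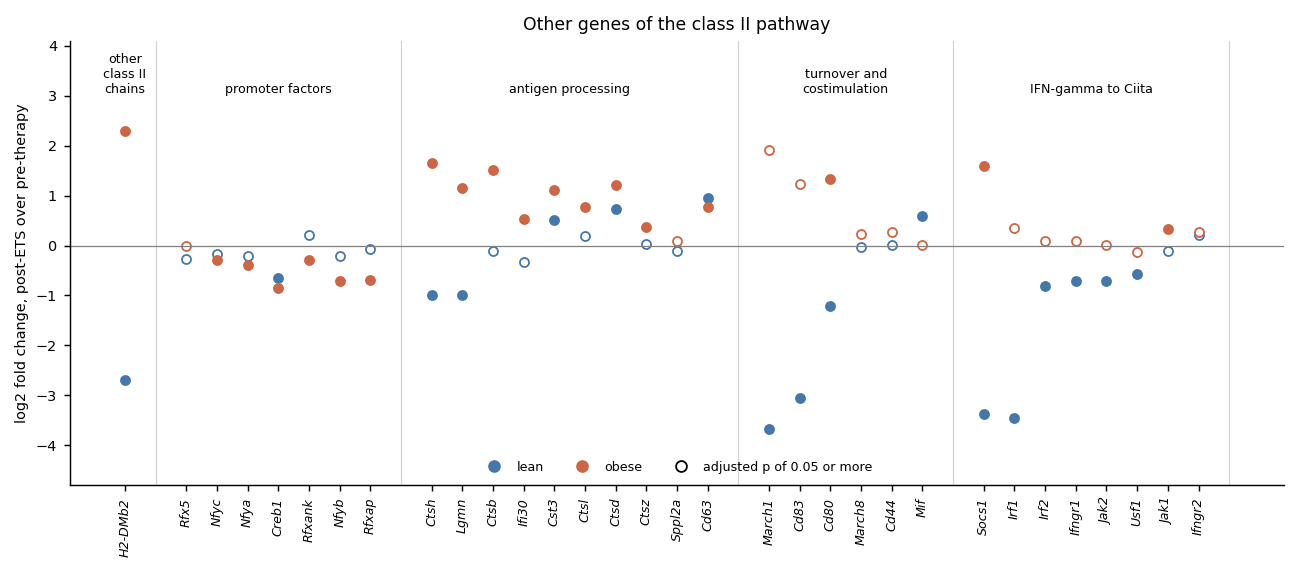
Log2 fold change after ETS (vertical axis) of the 32 tested genes from the 5 pathway lists, in lean and in obese tumors, with open circles for an adjusted p of 0.05 or more. H2-DMb2, Irf1, Socs1, March1 and Cd83 reach -2.68 or lower in lean tumors, while the promoter factors stay between -0.85 and 0.22 in both hosts.

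Genes that lie between the class II members on chromosome 17 were also read, a choice made after the data were seen. From the start of H2-DMa to the end of H2-Eb1 the RefSeq table lists 12 genes, of which 7 are no members and 5 of those were tested. After ETS all 5 (H2-DMb2, Psmb9, Tap1, Psmb8 and Tap2) fell in lean hosts, where 22.8% of all genes fell. In obese hosts 4 of them rose, where 21.2% of all genes rose. Tap1 and Tap2, the peptide transporter of class I presentation, averaged 369 and 142 CPM in lean pre-therapy, 41.3 and 13.7 in lean post-ETS, 4.87 and 3.03 in obese pre-therapy and 25.6 and 8.87 CPM in obese post-ETS tumors. Psmb8, an immunoproteasome subunit, had log2 fold changes of -4.40 in lean hosts (adjusted p = 0.000128) and 2.32 in obese hosts (adjusted p = 0.00946), and Psmb9, another, -4.66 (adjusted p = 5.85e-05) and 1.51 (adjusted p = 0.0617). The median over the 5 was -3.37 in lean and 2.29 in obese tumors.

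**Figure D5:**
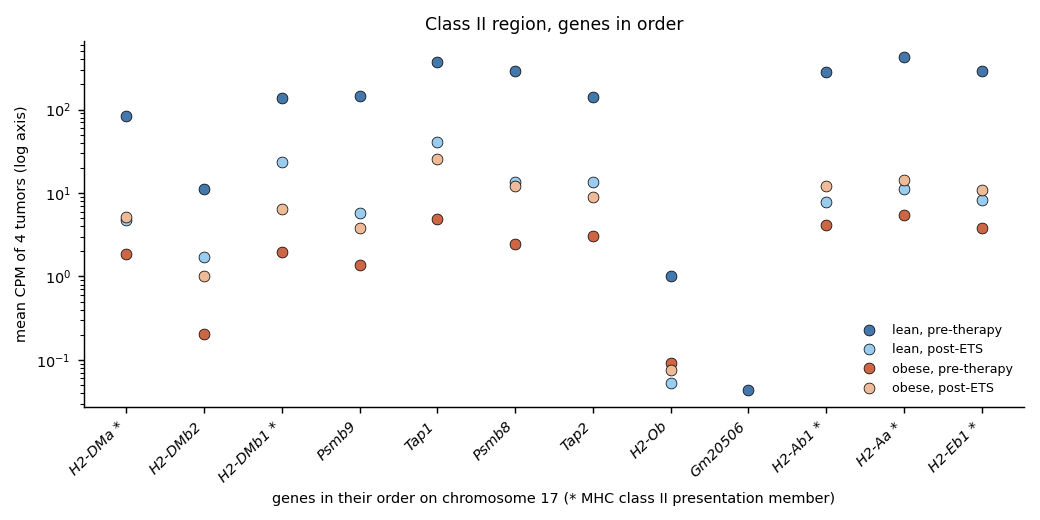
Mean CPM of 4 tumors (log axis) for the genes of the class II region in their order on chromosome 17, 1 color a group, with members marked by an asterisk. Means of 0 are not drawn, nor is that of Gm20506 in obese pre-therapy tumors (0.0167 CPM). From H2-DMa to Tap2 and from H2-Ab1 to H2-Eb1 lean pre-therapy tumors are highest and obese pre-therapy tumors lowest.

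The genes most like the members were sought among 13308 tested genes with a mean of at least 1 CPM, by Pearson's r of log2 CPM over the 16 tumors. The 4 lean pre-therapy tumors stand apart from the other 12 in the members, and r takes in that gap. Most like the mean of H2-Aa, H2-Ab1 and H2-Eb1 were Gm12250 (r = 0.971), Irf8 (0.969), 9930111J21Rik1 (0.969), Cd83 (0.967) and H2-M3 (0.966). Irf8, a transcription factor of the myeloid lineage, averaged 82.5, 6.92, 2.99 and 11.2 CPM in lean pre-therapy, lean post-ETS, obese pre-therapy and obese post-ETS tumors. Most like Ciita were Itgal (0.967), Samhd1 (0.963), Slamf7 (0.961), Gm12250 (0.960) and Aida (0.950). Itgal, the alpha chain of the leukocyte integrin LFA-1, averaged 18.1, 0.803, 1.58 and 2.09 CPM in the same order.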

How the data were processed

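The authors prepared TruSeq Stranded mRNA libraries from 16 tumors, sequenced 101 bp paired ends (demultiplexed with bcl2fastq 2.20.0), trimmed with Trimmomatic, aligned to mm10 with HISAT2 2.1.0 and quantified genes with StringTie 2.1.3b, per the methods and the submitters' processing notes. The deposited table holds raw read counts per gene, and the authors also gave FPKM and TPM values for each tumor. Counts were used for every test, and TPM for levels compared between genes; FPKM served only as an alternative to TPM for levels. Labels gave the groups and tumor numbers and do not say whether each tumor came from its own mouse, so p-values measure the spread between these samples.

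The authors excluded genes with a count of 0 in any sample and tested with edgeR's exact test on counts with 1 added. Here the same exclusion and TMM scaling were kept, and all 4 groups were fitted together with edgeR 4.0.16 (R 4.3.3) by the quasi-likelihood test, with Benjamini-Hochberg adjustment over the 16209 genes tested (29568 excluded) and a threshold of 0.05. The exclusion removes genes that fall to 0 in 1 tumor, such as Ciita. Intervals are 95% intervals of the log2 fold change. Log2 CPM used a prior count of 2. The common biological coefficient of variation was 0.233. No pair of tumors of a group was close enough in counts to be 1 library. Alternatives were DESeq2 1.42.0, limma 3.58.1 on log2(TPM + 1), other scalings and filters, the replicate block, a macrophage marker covariate, fits of only the groups compared and leaving out each tumor. The tumor numbers were not treated as pairs. Over 24 pairs of same-numbered tumors the deviations from group means correlated by -0.11 to 0.45 (median 0.073). Over 72 pairs of differently numbered tumors they correlated by -0.58 to 0.51 (median -0.040). These ranges overlap and do not settle whether the numbers pair tumors.

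The members and gene lists were chosen with earlier results of these data known. An item of the pathway lists is not reported here. All members are named; in each pathway list, up to 4 tested genes with the lowest p of the difference between the ETS effects are named, plus the 5 genes most like the chains and the 5 most like Ciita. For each of 12 marker lists the range of the summed CPM per group was taken. The lists whose sums are not described with the members were endothelium (104 to 338 CPM over the 16 tumors), adipocyte (7.66 to 257), skeletal muscle (1.39 to 306) and neutrophil (0.350 to 28.3). Over all tumors the lowest and highest genes of the macrophage list were Mertk (6.50 CPM) and C1qa (85.3), of the dendritic list Siglech (0.233) and Zbtb46 (6.21), of the B cell list Ms4a1 (0.035) and Cd79a (1.41), of the T cell list Cd4 (0.514) and Cd8a (2.23), of the NK list Ncr1 (0.157) and Prf1 (3.86) and of the leukocyte list Ptprc (14.6) and Laptm5 (46.9). In the other lists they were Ly6g (0.00972) and Csf3r (3.78) for neutrophils, Trpm1 (323) and Tyrp1 (6701) for melanocytes, Lum (4.19) and Col3a1 (437) for fibroblasts, Tek (1.92) and Vwf (59.4) for endothelium, Plin1 (1.44) and Fabp4 (46.3) for adipocytes and Tnnt3 (6.09) and Acta1 (23.9) for muscle.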

Additional observations from a re-analysis of the deposited data

Results flagged for a closer look

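Obese pre-therapy tumor 2 was far above the other 3 tumors of its group for the classical chains, Cd74 and Ciita. Its levels were 14.4 CPM for H2-Aa, 9.61 for H2-Ab1, 9.99 for H2-Eb1, 25.9 for Cd74 and 1.34 for Ciita, each past Dixon's limit for groups of 4. Of 32 groups examined, 5 passed, all in this tumor, where chance gives about 1 in 20 and the members are not independent of one another. The same tumor had the highest sums of its group for macrophage markers (192 CPM), T cell markers (1.26 CPM) and fibroblast markers (605 CPM), and in all for 8 of the 12 marker lists, melanocyte, endothelium and adipocyte markers among them.

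The lean and obese changes after ETS differed, by the test of the difference itself, for all 8 members. That test shares the lean pre-therapy tumors with the lean changes and the pre-therapy differences, so it is not separate evidence. The log2 differences, lean minus obese, were -6.60 for H2-Aa, -6.73 for H2-Ab1, -6.62 for H2-Eb1, -5.62 for H2-DMa, -4.25 for H2-DMb1, -6.32 for Cd74, -5.82 for Ctss and, in the fit without the exclusion, -7.61 for Ciita.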

How the results depend on the processing

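Of 979 member values recomputed under 25 settings, 943 kept their direction and side of the threshold, 5 became called, 9 lost the call and 22 changed sign. With the macrophage score as a term, the members called went from 3 to 0 for ETS in obese tumors and from 7 to 2 for the difference between hosts. Over all genes, rises in obese tumors went from 21.2% to 5.63% and negative calls for the difference from 10.1% to 1.55%. The obese changes that turned negative were H2-Aa -0.96, H2-Ab1 -0.81, H2-Eb1 -0.89, Cd74 -0.84, Ctss -0.026 and Ciita -0.86, and the obese minus lean differences after ETS that did so were H2-Aa -1.24, H2-Ab1 -0.85, H2-Eb1 -1.14, H2-DMa -0.58, Cd74 -1.04 and Ciita -0.22. Leaving out each tumor in turn gave 3 to 7 called members for ETS in obese tumors, the 7 without obese pre-therapy tumor 2, and obese changes from 0.48 to 2.51 for H2-Aa, the lowest without obese post-ETS tumor 4. Over all genes, 2597 of 16320 to 3586 of 16296 rose in obese tumors in those fits, and 3234 of 16243 in the fit with 7 members. Leaving out lean post-ETS tumor 3 or 4 or obese post-ETS tumor 4 also turned uncalled obese minus lean differences after ETS, which over all such fits ranged from -0.56 to 0.98 for H2-Aa, -0.37 to 1.13 for H2-Ab1, -0.41 to 0.98 for H2-Eb1, -0.09 to 0.44 for H2-DMa and -0.38 to 0.77 for Cd74. After ETS, the 1 member that differed between hosts became 2 with DESeq2 (Ctss, adjusted p = 0.0409, added to H2-DMb1) and 0 with only those 8 tumors. Over all 16209 genes, higher and lower calls in obese tumors went from 531 and 373 to 1115 and 939 with DESeq2. With only those 8 tumors they went to 50 and 16. Causes of these changes were not tested. The replicate block changed no call, with 7, 3, 7, 7 and 1 members called for ETS in lean, ETS in obese, their difference, obese against lean before and after, as without it. Over the 16209 genes of that fit, 4047 fell in lean tumors, 3643 rose in obese tumors and 1791 had a negative call for the difference. In obese against lean tumors 2356 were lower before and 801 lower after ETS. The tumor numbers are not known to pair tumors. On log2(TPM + 1) the median of all genes shifted by -0.28 in lean tumors, and no member changed direction or call. In FPKM in place of TPM, 11 of 32 group levels of members moved by over 1 SD, as the units are scaled differently. The exact test and the fits of only the groups compared give no value for the difference between hosts. Depth limits Ciita, which had no read in lean post-ETS tumor 4.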
